A study of Caenorhabditis elegans with 2 samples.

Results

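Peaks were examined at 10 Caenorhabditis elegans genes known from the survival of starved first-stage (L1) larvae: daf-2, age-1, daf-18 and daf-16 of insulin signalling, the energy sensor aak-2, the autophagy genes hlh-30 and lgg-1, the cell cycle inhibitor cki-1, and the fuel genes icl-1 and acs-2. They were listed by name for these functions, and all 10 were found among the 19973 protein-coding genes of the annotation. The data come from chromatin immunoprecipitation followed by sequencing (ChIP-seq) of CEH-63, a homeodomain protein, in 2 biological replicates that form 1 group. All animals were of strain OP742, which carries the transgene wgIs742 (C02F12.10, that is ceh-63, fused to TY1, EGFP and 3xFLAG, with unc-119(+)) in the unc-119 (tm4063) background. They were whole L1 larvae of mixed sex, aged 6 hours and starved after bleaching. The immunoprecipitation used an anti-GFP antibody, although the antibody entry of the labels reads ceh-63. One transgenic line was used, so any effect of the insertion is shared by both replicates. The animals were not sorted by tissue, so a peak cannot be placed in a cell type. There is no fed group, no untagged group and no second condition, and the control alignment was not analysed here. No comparison of starved with fed animals was therefore possible.

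Larvae that hatch without food stop development and can live for weeks in this arrest. Low insulin signalling is central to it: the receptor DAF-2 and the PI3-kinase AGE-1 hold the FOXO transcription factor DAF-16 out of the nucleus, the lipid phosphatase DAF-18 opposes AGE-1, and active DAF-16 promotes arrest, in part through the cyclin-dependent kinase inhibitor CKI-1. AMP-activated kinase (AAK-2), autophagy under HLH-30 (the TFEB homologue) with the Atg8 protein LGG-1, and the use of stored fat through ACS-2 and ICL-1 help the arrested larva to last. CEH-63 itself is known from the DVC interneuron, and nothing in these data measures the expression of any of these genes.

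Each of the 4 deposited peak lists was searched for summits within 2 kb of any annotated start of a gene or inside the gene. The lists are those of replicate 1, of replicate 2, of both replicates pooled, and the reproducible list, which the authors derived from the other lists by an irreproducible discovery rate (IDR) threshold. The first 3 hold 30000 peaks each and are relaxed, while the reproducible list holds 479, which are pooled peaks 1 to 479 when ordered by signal. Rank 1 is the highest signal within a list, and signals were not compared between lists because their scale is not given. A −log10 q of 1.3 corresponds to a q of 0.05. That value was reached by 172 peaks of replicate 1, 191 of replicate 2 and 194 of the pooled list. The files hold no read counts, so the depth is unknown. A start in the annotation may lie downstream of the place where transcription begins, since many C. elegans messages are trans-spliced.

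Of the 10 genes, lgg-1 and icl-1 had a reproducible peak. At lgg-1 the best pooled peak ranked 131, and at icl-1 it ranked 226. The same rule found a reproducible peak at 552 of the 19973 protein-coding genes (2.76%). In each of these 2 genes the summit was nearer to the gene's own start than to any other. That held for a reproducible peak of 1.38% of protein-coding genes. Since the genes were listed with results of these data known, the count of 2 is a description and no test was made.

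A weak peak was nearly everywhere. In the pooled list 9 of the 10 genes had a peak, against 77.9% of protein-coding genes, and cki-1 was the gene without one. In replicate 1 all 10 had a peak (77.6% of protein-coding genes), as they did in replicate 2 (78.7%). With a peak at most genes of the genome, its presence in these relaxed lists says little about the members.

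Below lgg-1 and icl-1, the best pooled ranks were 579 at daf-2, 797 at hlh-30 and 1011 at daf-16, then 2097 at age-1, 2385 at daf-18, 7309 at aak-2 and 18525 at acs-2. Set against all protein-coding genes ordered by their best pooled peak, lgg-1 held place 196, icl-1 place 303, daf-2 place 659 and hlh-30 place 878. By role, the best ranks ran from 579 to 2385 over the 4 insulin genes, from 131 to 797 over the autophagy genes and from 226 to 18525 over the fuel genes. In whole animals, a weak peak from binding in few cells and one from little binding in many cells cannot be told apart.

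The replicates ordered the genes differently. Within the 479 strongest peaks of replicate 1 lay a peak of daf-2 (rank 317), lgg-1 (rank 112) and icl-1 (rank 160), 3 genes of 10 where 2.96% of protein-coding genes had one. Within the 479 strongest of replicate 2 lay one of hlh-30 (rank 416), lgg-1 (rank 303) and icl-1 (rank 421), where 2.75% of protein-coding genes had one. Both replicates had such a peak at lgg-1 and icl-1 alone among the 10, against 1.49% of protein-coding genes.

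**Figure D1:**
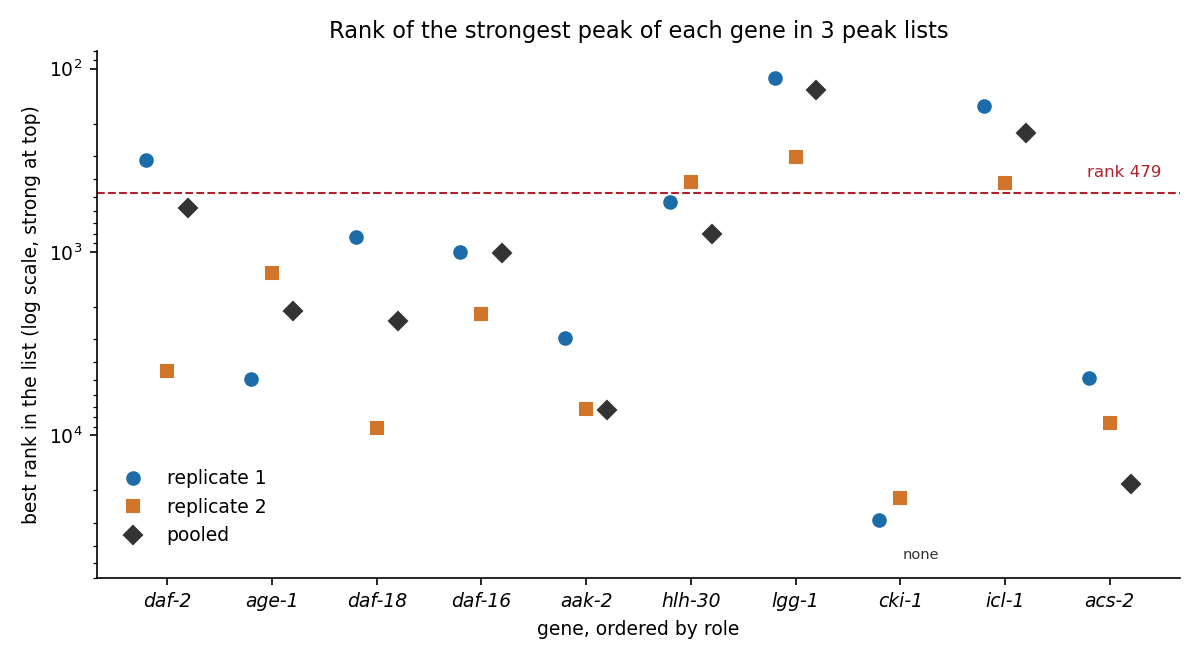
Rank of the strongest peak of each of the 10 genes in replicate 1, replicate 2 and the pooled list, on a log axis with strong peaks at the top. The dashed line marks rank 479, the length of the reproducible list; lgg-1 and icl-1 lie above it in all 3 lists, and cki-1 has no pooled peak.

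The length searched differs between the genes and bears on the number of peaks. It ran from 4 kb at lgg-1 and cki-1 to 48.3 kb at daf-2, against a median of 4.18 kb over protein-coding genes. The 3 genes with 20 kb or more (daf-2, daf-16 and hlh-30) held 39 of the 60 pooled peaks of the set. Their densities of 2.9, 4.61 and 5.42 pooled peaks per 10 kb compare with a median of 3.27 over the 265 protein-coding genes of that length. With 12 peaks, hlh-30 was at the 90th percentile of genes of like length (12), and daf-16 with 13 was below it (14). For daf-2 no percentile is given, since its interval exceeds the longest length bin, which ends at 45.8 kb. The short genes lgg-1 and icl-1 were denser, with 4 peaks in 4 kb and 5 peaks in 5.67 kb. These counts were above the 90th percentile of genes of like length (3 and 4 peaks). They include overlapping pairs: ranks 131 with 442 and 753 with 16687 at lgg-1, 226 with 498 and 1347 with 16978 at icl-1. Another gene's start was closer at rank 753 of lgg-1 and ranks 1347, 8183 and 16978 of icl-1. Of the other short genes, aak-2 (6.44 per 10 kb) and acs-2 (6.66) were at that percentile for their length. In contrast, age-1 (1.92), daf-18 (1.4) and cki-1 (0) were sparser.

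The same care applies to strong peaks. One of the 1000 highest pooled peaks, a limit chosen after the ranks were seen, lay at 4 of the 10 genes and at 5.5% of protein-coding genes. Among genes with a search interval of 20 kb or more it lay at 2 of the 3 members (daf-2 and hlh-30) and at 22.6% of protein-coding genes. Among shorter genes it lay at 2 of 7 members and at 5.27% of protein-coding genes. A reproducible peak lay at none of the 3 long members, where 7.92% of long protein-coding genes had one, and at 2 of the 7 short members, where 2.69% of short ones had one.

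**Figure D2:**
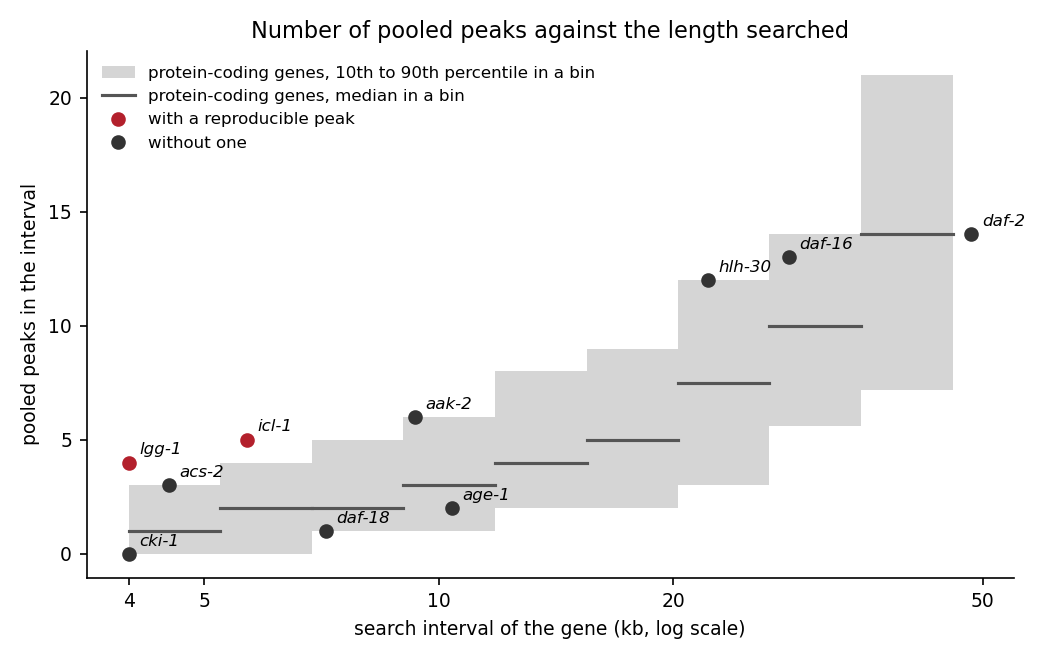
Number of pooled peaks in each gene's search interval (vertical) against the length of that interval in kb (horizontal, log scale). Grey boxes span the 10th to 90th percentile of protein-coding genes in bins of length and dark lines are their medians; red points are the genes with a reproducible peak, and lgg-1 and icl-1 lie above the box of their length.

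Among the insulin genes, the receptor gene daf-2 (WBGene00000898, chrIII:2994514-3040846 on ce11, minus strand, 7 annotated starts) had the strongest pooled peak. It was intronic, at chrIII:3020728-3021097, 1307 bp upstream of an internal start of daf-2, with no other gene's start closer. The replicates had a summit at almost the same base but far apart in rank: 0 bp away at rank 317 in replicate 1 and 2 bp away at rank 9036 in replicate 2. The second pooled peak of daf-2, of rank 895, was also intronic (chrIII:3030963-3031332, 2348 bp upstream of a start), with ranks 742 and 5562 in the replicates. Both sites thus ranked higher in replicate 1 than in replicate 2. Of the 14 pooled peaks of daf-2, 9 were intronic, 4 were in coding exons and 1 was upstream of the gene, and 7 had a counterpart within 200 bp in both replicates. The 1 nearest to the outermost start, 581 bp upstream of it, ranked 28575.

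At age-1 (WBGene00000090, chrII:11519328-11527054, minus strand), the PI3-kinase catalytic subunit gene, the best pooled peak had rank 2097 and lay in an intron at chrII:11521733-11522102. The start of another protein-coding gene, Y62F5A.10, was closer to the summit (318 bp) than that of age-1 (1272 bp). Replicate 2 had this site at rank 1298, 1 bp away, and replicate 1 had a peak of rank 24783, 112 bp away. The strongest peak of replicate 1 at age-1 (rank 4963) was 2945 bp from that of replicate 2, so the replicates did not share a best site there.

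The phosphatase gene daf-18 (WBGene00000913, chrIV:420011-425177, minus strand) had a single pooled peak, of rank 2385, at chrIV:424392-424761 in an intron. Its summit was 600 bp into the gene from the only annotated start, and no other start was closer. Replicate 1 placed it at rank 829 (27 bp away) and replicate 2 at rank 9140 (1 bp away). As at daf-2, the site ranked far higher in replicate 1 than in replicate 2.

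The 121 bases around the best pooled summits of daf-2 and daf-18, from the WBcel235 genome, are shown because at these intronic sites both replicates had a summit within 27 bp but ranked it differently. They read 5′ to 3′ on the minus strand, that of both genes, and capitals mark the 11 bases centred on the summit. The windows are chrIII:3020853-3020973 and chrIV:424517-424637.
daf-2 rank 579: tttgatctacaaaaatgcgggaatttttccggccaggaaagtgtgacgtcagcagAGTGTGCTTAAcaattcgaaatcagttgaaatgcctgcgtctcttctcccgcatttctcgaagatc
daf-18 rank 2385: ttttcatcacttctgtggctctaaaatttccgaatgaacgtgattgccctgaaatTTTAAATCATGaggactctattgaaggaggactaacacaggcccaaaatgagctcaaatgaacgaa
The GC content was 44.6% in the daf-2 window and 38.8% in that of daf-18.

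The transcription factor gene daf-16 (WBGene00000912, plus strand, 7 annotated starts) lies on chromosome I at 10750498 to 10776703. It had 13 pooled peaks, 12 of them intronic and 1 in a 3′ UTR, and 5 had a counterpart in both replicates. The best, at 10765507 to 10765876, ranked 1011 and was 2038 bp downstream of an internal start. Replicate 1 had it at rank 2130 (14 bp away) and replicate 2 at rank 4438 (1 bp away). Each replicate had its own stronger site: rank 1006 in replicate 1, 119 bp upstream of an internal start, and rank 2194 in replicate 2, 3328 bp from it. The replicate 1 site had no replicate 2 peak within 200 bp (nearest 754 bp away). The second pooled peak, of rank 2576, fell near the replicate 2 site and ranked 15995 in replicate 1. Peaks were spread over daf-16 with no shared maximum, and 8 of the 13 lay closer to the starts of non-coding genes inside it, such as H36N01.2 (87 bp from the peak of rank 6862).

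**Figure D3:**
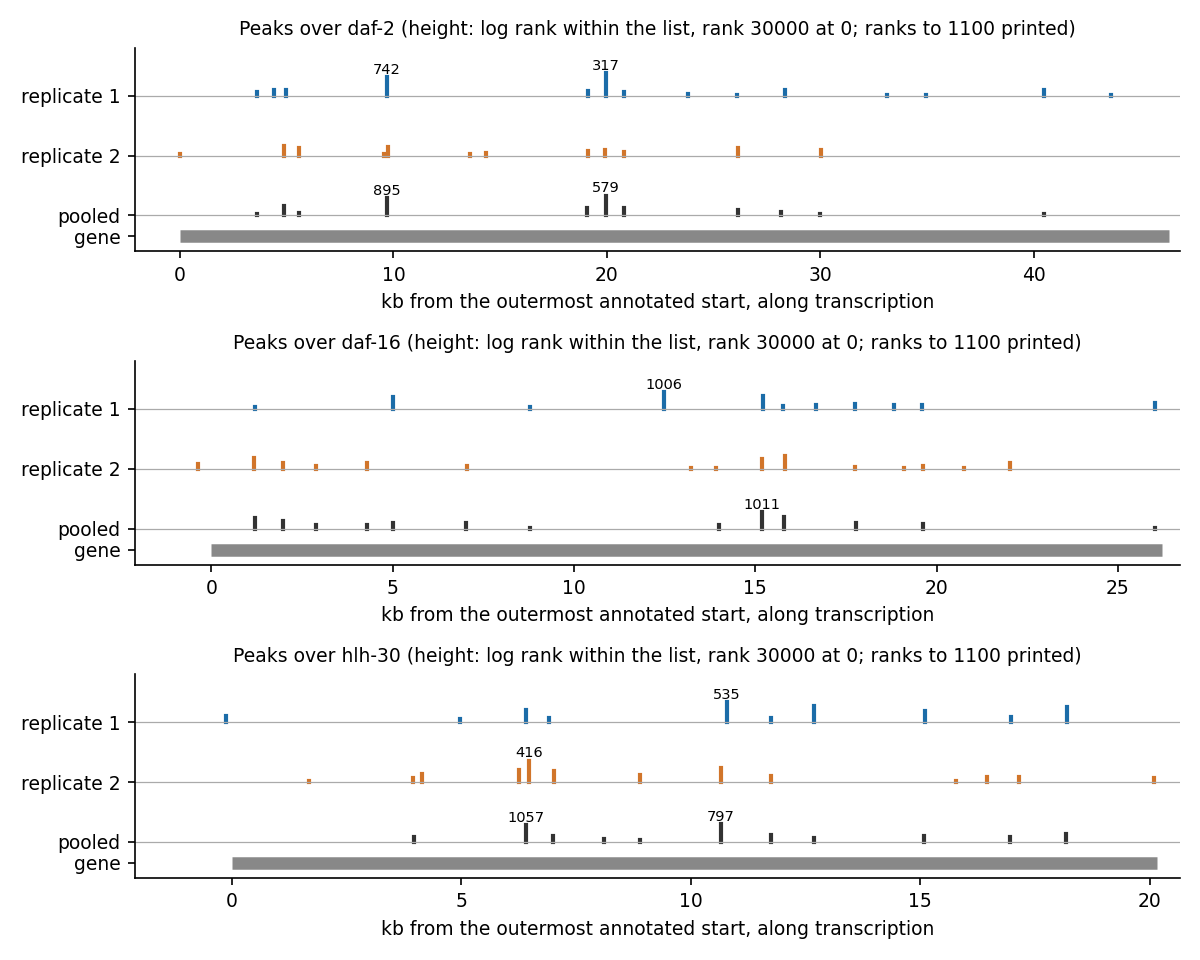
Summits over daf-2, daf-16 and hlh-30 in the 2 replicate lists and the pooled list, by distance in kb from the outermost annotated start along transcription. The height of a line gives the log of the rank within its list, with rank 30000 at 0; the tallest daf-2 line is that of rank 317 in replicate 1, and in each gene the tallest lines of the replicates stand at different places.

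At aak-2 (WBGene00020142, chrX:16796087-16803398, plus strand), the gene of an AMP-activated kinase catalytic subunit, all 6 pooled peaks were weak. The best, of rank 7309, was 923 bp upstream of a start at chrX:16794979-16795348, with ranks 14592 and 12231 in the replicates. In each replicate the best peak lay elsewhere, inside the gene: rank 2955 in replicate 1 and rank 7212 in replicate 2, 150 bp apart. Both of those were closer to the start of the non-coding gene T01C8.9 (323 and 473 bp). The pooled peak there had only rank 15267, so aak-2 had no peak near the reproducible range in any list.

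Of the autophagy genes, hlh-30 (WBGene00020930, chrIV:4014793-4034951, minus strand, 10 annotated starts) encodes a helix-loop-helix activator of autophagy and lysosome genes. It had 12 pooled peaks, 10 of them intronic and 2 in coding exons. The best had rank 797, in an intron at chrIV:4024100-4024469, 2778 bp downstream of the nearest start, and ranked 535 in replicate 1 (123 bp away) and 1822 in replicate 2 (1 bp away). The next, of rank 1057 at chrIV:4028356-4028725, was 414 bp upstream of an internal start and reversed that order, with rank 2550 in replicate 1 (0 bp away) and 416 in replicate 2 (81 bp away). No other gene's start was closer to either summit. Both replicates thus placed hlh-30 near the reproducible range, at sites 4298 bp apart, and neither site was in the reproducible list.

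The 121 bases around both hlh-30 summits are shown, since each is the pooled summit nearest to the strongest hlh-30 site of 1 replicate. They read 5′ to 3′ on the minus strand at chrIV:4024225-4024345 and chrIV:4028481-4028601, with the 11 central bases in capitals.
hlh-30 rank 797: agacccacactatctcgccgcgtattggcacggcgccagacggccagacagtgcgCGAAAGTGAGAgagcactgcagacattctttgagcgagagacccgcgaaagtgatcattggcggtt
hlh-30 rank 1057: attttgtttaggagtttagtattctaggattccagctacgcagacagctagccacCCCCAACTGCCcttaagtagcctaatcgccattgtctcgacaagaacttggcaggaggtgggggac
The GC content was 57.9% around the first summit and 49.6% around the second.

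The highest-ranked peak of the set was at lgg-1 (WBGene00002980, chrII:6346960-6347719, minus strand, 1 annotated start), which encodes the ubiquitin-like Atg8 protein of autophagosome membranes. A pair of reproducible peaks lay upstream of it and shared 160 bp. The first, at chrII:6347756-6348125, had rank 131, a −log10 q of 1.57 and its summit 222 bp upstream of the start. The second, at chrII:6347966-6348335, had rank 442, a −log10 q of 0.47 and its summit 432 bp upstream. No other start was closer to either summit. Such overlap is uncommon in the list: 18 of the 479 reproducible peaks (3.76%) overlapped another one. That count needs both peaks in the reproducible list. Overlaps with weaker pooled peaks also occurred among the members, and their share in the pooled list was not computed. The 2 summits were 210 bp apart, close to the smallest distance between neighbouring summits anywhere in the pooled list (199 bp). Whether the pair is 2 sites or 1 broad enrichment listed as 2 peaks was not tested.

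The replicates differed in which summit of the pair was stronger. Replicate 1 had its strongest lgg-1 summit 1 bp from the first pooled summit, at rank 112, and had a peak of rank 8283 at the second, 7 bp away. Replicate 2 had its strongest summit 1 bp from the second, at rank 303, and its nearest summit to the first was this same one, 211 bp away. The strongest summits of the replicates were therefore 212 bp apart. Over the whole reproducible list the median distance to the nearest summit was 11 bp in replicate 1 and 9 bp in replicate 2. Of the 479 reproducible summits, 5 (1.04%) were more than 200 bp from any summit of replicate 2, and the first lgg-1 summit was 1 of them, as was that of icl-1 described below. The strongest lgg-1 peak had a −log10 q of 1.87 in replicate 1 and 0.823 in replicate 2. The labels give a sonication size range of 200 to 800, and whether fragment size bears on the spacing was not tested.

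Downstream of lgg-1 a pooled peak of rank 753 (chrII:6346594-6346963) recurred in both replicates at a shared place, 29 bp away in each, with rank 1949 in replicate 1 and 608 in replicate 2. It lay just beyond the gene's end, 940 bp from the lgg-1 start, and closer to the start of C32D5.8 (815 bp). It was not in the reproducible list and cannot be assigned to lgg-1 by position.

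The gene icl-1 (WBGene00001564, chrV:724332-728004, minus strand) encodes the glyoxylate cycle enzyme that lets worms make sugar from fat. Its best pooled peaks again formed an overlapping pair, here inside the gene. The reproducible peak, at chrV:727340-727709, had rank 226, a −log10 q of 1.06 and its summit in a coding exon 468 bp downstream of a start. A second pooled peak, of rank 498, overlapped it by 135 bp (chrV:727575-727944, 233 bp downstream of a start) and was just outside the reproducible list, which ends at rank 479. No other gene's start was closer to either summit. Replicate 1 had its strongest summit 77 bp from the first, at rank 160. Replicate 2 had its strongest 3 bp from the second, at rank 421, and 232 bp from the first. The strongest summits of the replicates were 155 bp apart, within the 200 bp counted as a counterpart. Those at lgg-1 were 212 bp apart. Replicate 1 also had a weak peak of rank 21627, 55 bp from the second pooled summit. The −log10 q of the strongest peak was 1.8 in replicate 1 (rank 160) and 0.505 in replicate 2 (rank 421). That of the weak replicate 1 peak was 0.0734.

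The 300 bases that hold both summits at lgg-1 (chrII:6347897-6348196) and at icl-1 (chrV:727493-727792) are shown because they hold the summits of the reproducible peaks and the strongest summits of both replicates. Both read 5′ to 3′ on the minus strand, the coding strand of each gene. Capitals mark 11 bases at each summit. The first capitals are the summit nearest to that of replicate 2 (rank 442 at lgg-1, rank 498 at icl-1), and the second are the summit of rank 131 or 226.
lgg-1: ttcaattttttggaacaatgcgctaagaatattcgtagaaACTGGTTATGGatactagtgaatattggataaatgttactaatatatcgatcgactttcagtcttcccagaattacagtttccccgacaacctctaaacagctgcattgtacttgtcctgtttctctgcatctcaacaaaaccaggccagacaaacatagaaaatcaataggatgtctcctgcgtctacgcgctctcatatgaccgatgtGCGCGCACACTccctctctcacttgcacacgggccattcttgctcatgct
icl-1: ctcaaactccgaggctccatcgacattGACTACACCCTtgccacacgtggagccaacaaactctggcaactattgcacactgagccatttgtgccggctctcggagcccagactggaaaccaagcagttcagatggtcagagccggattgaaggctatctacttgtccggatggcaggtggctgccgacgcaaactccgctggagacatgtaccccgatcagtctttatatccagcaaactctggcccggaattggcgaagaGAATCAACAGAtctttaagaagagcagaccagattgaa
The GC content was 42.7% at lgg-1 and 52.3% at icl-1.

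**Figure D4:**
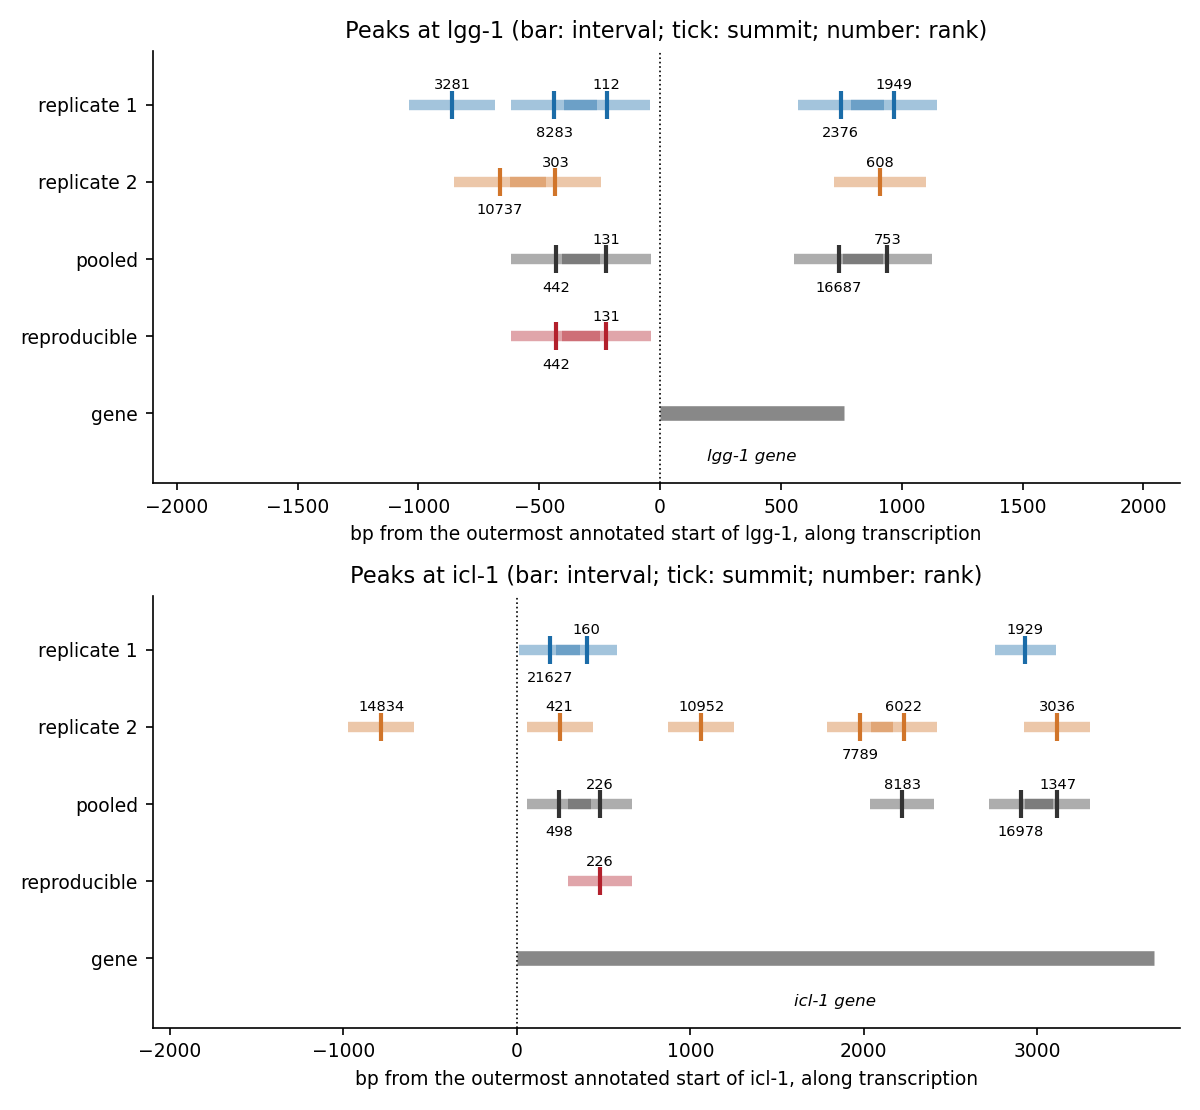
Peaks at lgg-1 and icl-1 in the 4 lists by distance in bp from the outermost annotated start along transcription. Bars are peak intervals, ticks are summits and numbers are ranks within the list; at both genes the strongest replicate 1 and replicate 2 summits (ranks 112 and 303, ranks 160 and 421) are offset and each matches a different pooled summit or lies nearest to it.

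Near its end, icl-1 had a pooled peak of rank 1347 (chrV:724702-725071) with ranks 1929 and 3036 in the replicates. Its summit was in a coding exon of icl-1 but closer to the start of fbxb-72, an F-box gene by its name (935 bp). The other fuel gene, acs-2 (WBGene00009221, chrV:15567394-15569897, plus strand), encodes an acyl-CoA synthetase of fat oxidation. Its 3 pooled peaks ranked 18525, 22745 and 29824, all in coding exons, and the best ranks in the replicates were 4865 and 8574, at sites 1740 bp apart. The replicate 1 peak was closer to the start of lsm-5 (777 bp), and acs-2 was thus among the weakest of the set.

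The weakest was cki-1 (WBGene00000516, chrII:7811240-7812105, plus strand), which has a search interval of 4 kb, as lgg-1 does. It had no pooled peak. Replicate 1 listed a peak of rank 29107, 543 bp into the gene, and replicate 2 a peak of rank 21994, 1020 bp upstream and about as close to T05A6.15 (1017 bp). These summits were 1563 bp apart, so nothing recurred at cki-1.

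Across the 9 genes with pooled peaks, the 60 peaks had a median rank of 10209 and ran from 131 to 29824. Of these, 31 had a counterpart within 200 bp in both replicates (51.7%), where 43% of all pooled peaks had one. The 2 shares were not matched for rank, and among the 479 reproducible peaks 473 had one. In replicate 1 alone 17 of the 60 had a counterpart, in replicate 2 alone 10, and in neither 2. By position relative to its own gene, 37 summits were intronic, 16 in coding exons, 2 in 3′ UTRs, 4 upstream and 1 downstream. Of the intronic summits, 9 were at daf-2, 12 at daf-16 and 10 at hlh-30, the 3 long genes. The start of another gene was closer to 25 of the 60 summits. Shares over all pooled peaks were not computed for positions or closer starts, so these counts are descriptions. The first lgg-1 peak was the 1 peak of the 60 with a q of 0.05 or less. Of all 30000 pooled peaks, 194 had such a q.

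A general homeodomain word and words of HLH-30 and DAF-16 were counted within 150 bp of summits, on both strands. The count covered the members' 13 pooled peaks that were either a gene's best or within the top 1000. The windows at lgg-1 and those at icl-1 overlap in part. The homeodomain core TAATTA was in 0 of the 13 windows, against 14.4% of reproducible and 11.4% of pooled peaks. Whether CEH-63 itself prefers this word was not tested. The E-box CACGTG, bound by helix-loop-helix factors such as HLH-30, was in 4, at daf-2 (rank 579), aak-2, icl-1 (rank 498) and acs-2, against 7.72% of reproducible and 6.26% of pooled peaks. The DAF-16 element GTAAACA was in 2, at hlh-30 (rank 797) and lgg-1 (rank 753), against 2.51% and 3.28%. None of the 4 windows with the E-box belonged to a reproducible peak, and the 3 reproducible windows of lgg-1 and icl-1 held none of the 3 words. A match is a run of letters and does not show that a factor binds there.

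Of the same 13 windows, 11 had a GC content above the median of the pooled list (38.2%) and 10 had one above that of the reproducible list (41.2%). They ran from 32.9% to 54.5%, and the 2 below the pooled median were both at lgg-1 (ranks 442 and 753). The GC content was 45.2% at the first lgg-1 summit, 32.9% at the second, 53.2% at the icl-1 reproducible summit and 54.5% at the best daf-16 summit. No test was made of this difference.

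The same search was made at 97 other genes of these pathways. A reproducible peak lay at 3 of them (3.09%, against the 2.76% of protein-coding genes given above). A pooled peak lay at 94 (96.9%, against 77.9% of protein-coding genes). Their search intervals had a median of 5.63 kb, longer than that of all protein-coding genes. By role, 1 of 15 insulin signalling genes, 1 of 15 energy sensing genes, 0 of 25 autophagy genes, 1 of 15 cell cycle arrest genes and 0 of 27 fuel genes had a reproducible peak. A top-1000 pooled peak lay at 12 of the 97 (12.4%, against the 5.5% above), and 6 of these 12 were in the cell cycle group. That group also had the longest median search interval of the roles (7.61 kb), with 2 of its 15 genes at 20 kb or more. The shares were not matched for length. The absence of a reproducible peak at the other 25 autophagy and 27 fuel genes is near what the 2.76% share gives for groups of that size. It does not set lgg-1 or icl-1 apart within their pathways.

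In insulin signalling the reproducible peak was that of pdk-1, the kinase that activates AKT, at rank 204, in an intron 1857 bp from its start (chrX:1323025-1323394), with rank 576 in replicate 1 and 142 in replicate 2. Next came ftt-2, a 14-3-3 protein gene, at rank 645, where the non-coding gene F52D10.12 had the closer start (41 bp). In energy sensing it was aakg-1, which encodes a gamma subunit of AMP-activated kinase, at rank 97, in an intron 1977 bp from its start (chrIII:12558067-12558436, rank 45 in replicate 1 and 543 in replicate 2). This was 1 of 21 pooled peaks at aakg-1, where pdk-1 had 6. Of the 15 energy sensing genes, 2 had a search interval of 20 kb or more. The second there was rheb-1, a GTPase gene of the TOR pathway, at rank 1828, with the start of spk-1 only 19 bp from the summit. At pdk-1 and aakg-1 both replicates had a summit within 20 bp of the reproducible one, as at the second lgg-1 peak (rank 442). At the first lgg-1 peak and at the reproducible icl-1 peak the nearest replicate 2 summit was 211 and 232 bp away.

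The best autophagy ranks outside the set were 660 at lmp-1, a lysosomal membrane protein gene (972 bp upstream), and 718 at epg-3 (181 bp downstream of the start). In the cell cycle group, the peak of rank 14 at lin-35, the retinoblastoma homologue, was 230 bp upstream but nearer to vps-51 (188 bp), with ranks 16 and 18 in the replicates. The developmental timing gene lin-14 followed at rank 490, closer to the non-coding gene T25C12.5 (626 bp). For the fuel genes the best ranks were 571 at pyc-1, the pyruvate carboxylase gene (198 bp upstream), and 1082 at tps-2, a trehalose synthase gene whose peak was closer to F19H8.2. At 5 of the 10 pathway genes named here, the start of another gene was closer to the summit.

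**Figure D5:**
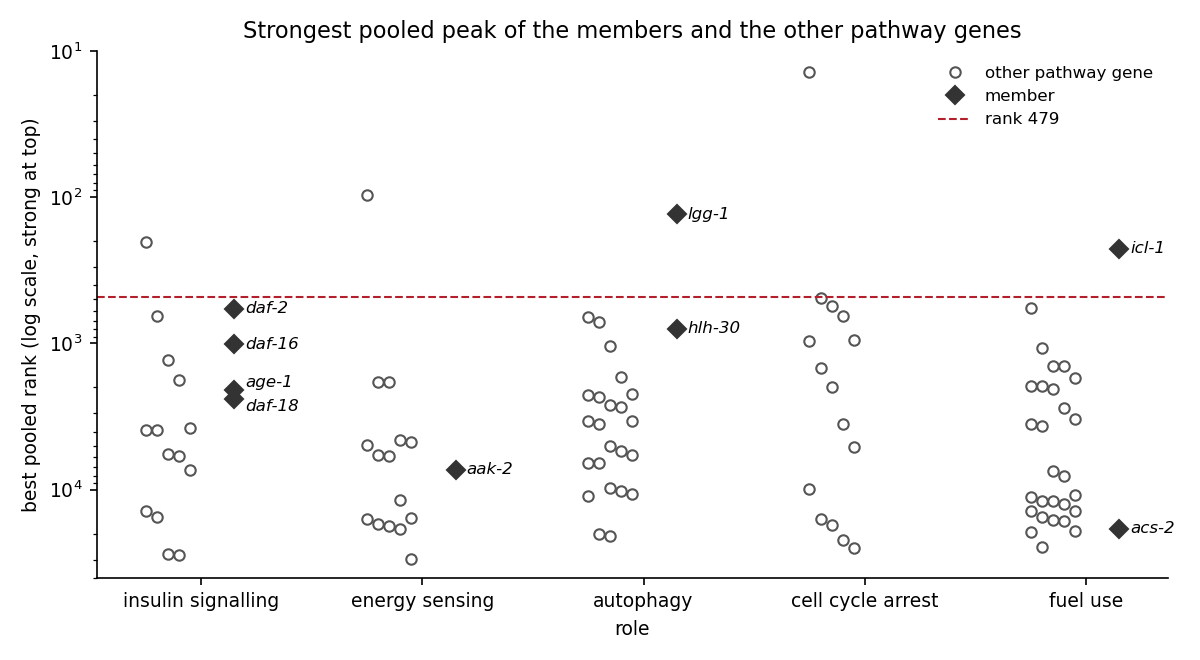
Best pooled rank (log axis, strong at top) of the members (filled diamonds, named) and of the other pathway genes (open circles) by role. The dashed line is rank 479; above it lie lgg-1, icl-1 and 3 other pathway genes, lin-35 at rank 14 being the highest.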

How the data were processed

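CEH-63 ChIP-seq peaks from 2 replicates of starved L1 larvae were analysed. As the deposited README text records, peaks on ce11 came from each replicate and from both together, each with 1 control alignment, and the IDR list was derived from these by the authors. The deposited signal of each peak and its deposited −log10 q (as narrowPeak defines that column) are the authors' values. Not given in the sources used here: aligner, caller, depth and IDR threshold. The README files name signal tracks, which were not analysed here.

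Ranks, offsets, nearest starts and counterparts (within 200 bp) were computed with Python 3.11.15 and numpy 2.4.6 from Ensembl release 115 gene models without pseudogenes (WBcel235, the ce11 sequence); all 10 members' outermost coding starts read ATG in the RefSeq genome. A summit's feature class came from all isoforms of its own gene. Coordinates are 1-based. No test was made: there is 1 group, and members and lists were chosen with earlier results of these data known. The peak assignment was checked on 200 planted peaks and recovered all 200. Named genes were the members, pathway genes with a reproducible peak, the 2 best-ranked pathway genes of each role, and nearer neighbours of these. Alternatives were the start window, gene bodies, overlap, stricter lists, single replicates and counterpart distances.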

Additional observations from a re-analysis of the deposited data

How the results depend on the processing

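The members with a reproducible peak, 2 in number, were lgg-1 and icl-1 with starts within 1 or 3 kb, without gene bodies, with any overlap of the interval, with the nearest start alone and among its 239 strongest peaks. With reproducible peaks of q 0.05 or less the number was 1 (lgg-1), because the icl-1 peak has a −log10 q of 1.06. Among the 1000 highest pooled peaks, a limit chosen after seeing the data, it was 4. With the strongest 479 peaks of a single replicate in place of the list, leaving out the other, the number was 3 and 3, adding hlh-30 without replicate 1 and daf-2 without replicate 2. The share of protein-coding genes, 2.76% by the main rule, moved with the setting. It was 2.11% at 1 kb, 3.45% at 3 kb, 2.48% without gene bodies, 2.95% by overlap and 1.38% by nearest start. For the 239 strongest it was 1.6%, at q 0.05 1.33%, among the 1000 highest 5.5%, and 2.75% and 2.96% without replicate 1 or 2. Members with a pooled peak numbered 9 (77.9% of protein-coding genes had one by the main rule). The number stayed at 9 with starts within 1 or 3 kb and without gene bodies. It was 10 without replicate 1 or 2, where 78.7% and 77.6% of protein-coding genes had a peak. Among the 10000 highest pooled peaks it was 8. The share of protein-coding genes was not computed for that limit or for the changed windows, so those counts are descriptions. Pooled member peaks with a counterpart in both replicates numbered 31, and 22 at 100 bp and 35 at 300 bp or by overlap. No paired analysis was possible because there is 1 group of samples. The depth is unknown, so a weak or absent peak does not show that binding was absent.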
